A study of Homo sapiens with 18 samples.

Results

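The genes described here are the 58 genes of the deposited count table that encode the Wnt ligands (WNT), the Frizzled receptors (FZD), the co-receptors LRP5 and LRP6, the R-spondins (RSPO1 to RSPO4) and their receptors (LGR4 to LGR6), the secreted antagonists DKK1 to DKK4, SFRP1, SFRP2, SFRP4 and SFRP5, the intracellular proteins CTNNB1 (beta-catenin), APC, AXIN1 and AXIN2, the transcription factors LEF1, TCF7, TCF7L1 and TCF7L2, and the feedback genes RNF43, ZNRF3, NKD1 and NKD2. They were chosen by a rule on symbols, 58 of the 28277 genes in the table. The rule used no values but was set with earlier results of these data known. RNA was sequenced from OVCAR3-KRAB cells, a human ovarian cancer cell line made to express dCas9-KRAB, a cutting-dead Cas9 fused to a repressor domain that silences the promoter to which a guide RNA leads it. The clonal cells carried the control guide (sgControl in the labels, sgCtl here) or one of the guides sgXIST7 and sgXIST9 against XIST, the long noncoding RNA that silences an X chromosome. The cells of each guide were grown in normoxia or for 24 h in a chamber with 1% oxygen, which gave 6 groups of 3 libraries. The labels do not name the clones, and clone here stands for the cells of 1 guide.

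All groups shared the dCas9-KRAB fusion and the drug selection for it and for the guide. Since each guide was studied in clonal cells, an effect of XIST loss and a difference between clones cannot be told apart. The labels do not say that the 3 libraries of a group came from separate cultures, and p-values then measure the spread between these libraries.

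Wnt proteins are lipid-modified ligands that bind a Frizzled receptor together with LRP5 or LRP6. Receptor binding stops the complex of AXIN and APC from marking beta-catenin for destruction, and beta-catenin then acts with TCF/LEF factors on target genes. SFRP proteins bind Wnts outside the cell, DKK proteins block LRP5 and LRP6, and RNF43 and ZNRF3 remove Frizzled receptors from the surface unless R-spondins, through LGR4 to LGR6, take these ligases away. AXIN2, NKD1, RNF43, ZNRF3 and LGR5 are known as feedback genes of the pathway, which works in the upkeep of epithelial stem cells, including those of the ovarian surface and the fallopian tube.

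The libraries held 11794375 to 24906936 counts. XIST, the target, stood at 479 ± 339 CPM, the count scaled to library size (SD, n = 3), in sgCtl, 0.161 CPM in sgXIST7 and 45.0 CPM in sgXIST9 in normoxia, and at 171, 0.117 and 23.3 CPM in hypoxia. Hypoxia replicate 3 stood apart from the other libraries of its group in sgCtl and sgXIST9, where 2236 and 1260 genes differed from them by more than 1 on the log2 scale. In sgXIST7 it was hardly farther out than replicate 1 (835 and 715 genes), and the other libraries had 217 to 1039 such genes. Of 8 ovarian epithelial markers, 4 had more than 3 counts in every library, among them EPCAM and KRT18 at 140 to 243 CPM on average, while MUC16 was at 0 in 5 of the 6 groups. The endothelial list summed to at most 0.488 CPM, and the leukocyte list to 16.4 to 46.5 CPM, nearly all of it CD68. The fibroblast list summed to 1.37 and 2.33 CPM in the sgCtl groups and to 50.9 to 191.5 CPM in the sgXIST groups, mostly COL1A2, and the part of this difference in the results below was not tested.

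A gene was tested where it passed a filter on low counts over the 18 libraries, which 37 of the 58 members and 14938 genes in all did. A member could pass through the group in which it is high, so counts over the 37 do not stand for the whole family. A gene was called where edgeR's quasi-likelihood test gave an adjusted p under 0.01 over all genes tested and the change exceeded 2-fold, that is 1 on the log2 scale. Of the 37 members tested, 24 were called in at least 1 of the 9 comparisons of guides, of oxygen or of both, where 45.3% of all genes tested were. The comparisons share libraries with each other: both sgXIST clones were set against the same sgCtl libraries at each oxygen level, and these also served in the comparison of hypoxia with normoxia.

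The Wnt ligands were present at low levels in every group. Per kilobase of exon, the 19 ligands summed to 4.31 ± 0.318 CPM per kb in sgCtl, 4.14 ± 0.645 in sgXIST7 and 3.91 ± 0.0183 in sgXIST9 in normoxia (SD, n = 3). In hypoxia the sums were 6.16 ± 1.06, 5.48 ± 0.863 and 5.62 ± 0.0975 CPM per kb. The ligand at the head of the order differed between groups. WNT10B led in sgCtl normoxia with 42.7% of the summed level and in sgXIST9 with 55.8% in normoxia and 29.0% in hypoxia. WNT9A led in sgXIST7 with 35.2% in normoxia and 37.4% in hypoxia, and in sgCtl hypoxia with 37.1%. WNT5A, which signals mainly without beta-catenin, was second in sgCtl normoxia at 1.10 ± 0.135 CPM per kb, above WNT10A at 0.523 ± 0.147, and the libraries of these neighbours did not overlap. WNT10A and WNT9A followed with overlapping libraries. In sgXIST9 hypoxia, the libraries of WNT10B, WNT9A and WNT10A overlapped from one neighbour to the next. The same held for WNT9A, WNT10A and WNT10B in sgXIST7 hypoxia.

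**Figure D1:**
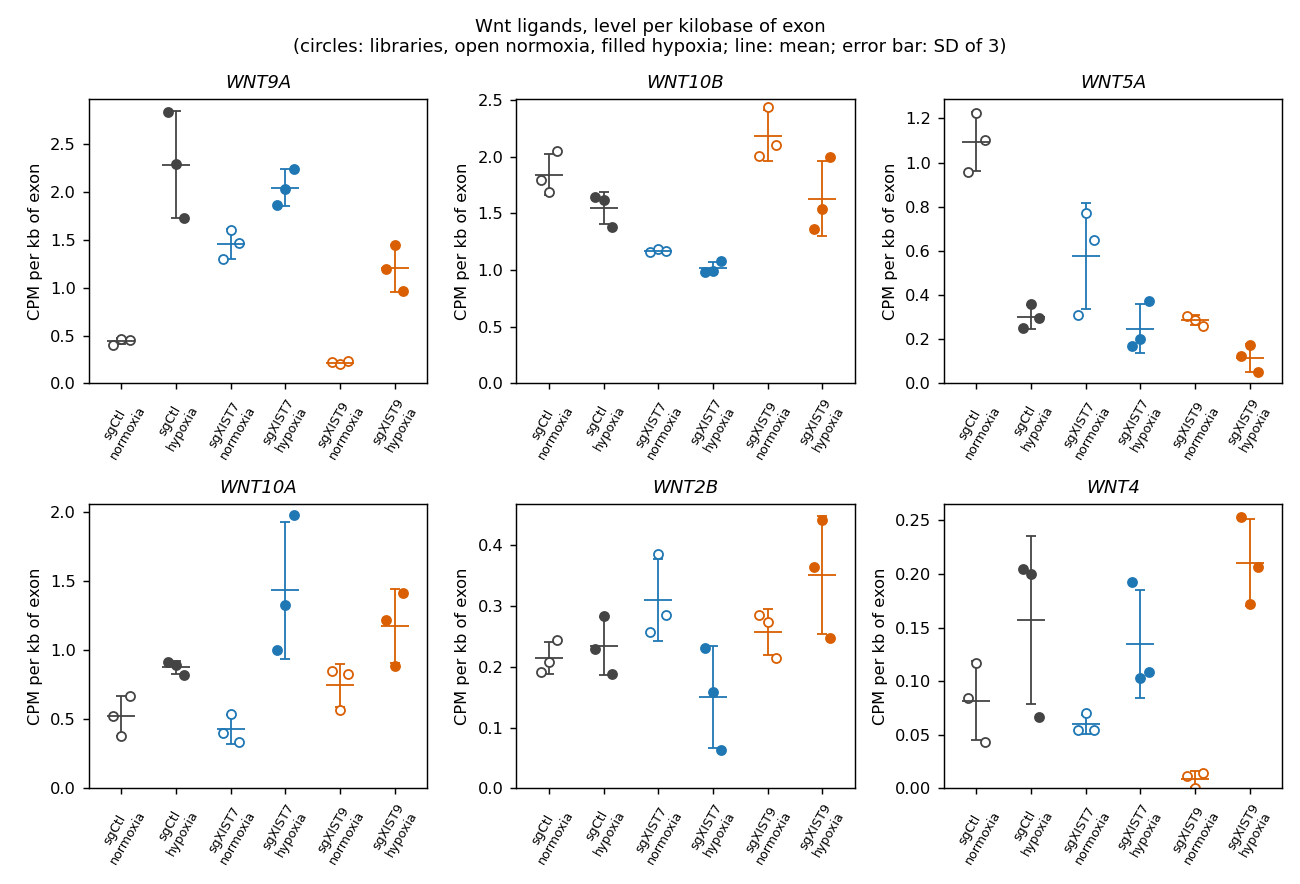
Levels of 6 Wnt ligands in CPM per kb of exon (vertical axes, each with its own range) in the 6 groups, with a circle for each library, open in normoxia and filled in hypoxia, and a line and bar for the mean and SD of 3 libraries. WNT9A is lower in all sgCtl and sgXIST9 normoxia libraries than in any other library, while WNT5A is highest in sgCtl normoxia.

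Frizzled receptors had higher summed levels per length than the ligands in every group. Their summed level was 44.6 ± 0.638 CPM per kb in sgCtl, 45.7 ± 4.35 in sgXIST7 and 39.2 ± 0.386 in sgXIST9 in normoxia. It was 51.7 ± 6.64, 60.4 ± 4.07 and 51.5 ± 3.24 CPM per kb in hypoxia. FZD8 and FZD6 led in normoxia in all 3 clones, at 10.9 to 14.5 and 10.5 to 11.4 CPM per kb, and their libraries overlapped in sgXIST7 and sgXIST9. FZD7, a receptor known from stem and progenitor cells, led in hypoxia in sgCtl with 15.5 ± 2.97 CPM per kb and in sgXIST9 with 11.2 ± 0.488. In sgXIST7 hypoxia FZD6 and FZD7 led with overlapping libraries at 14.4 ± 0.295 and 13.7 ± 0.761. FZD10 had no count in any library.

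**Figure D2:**
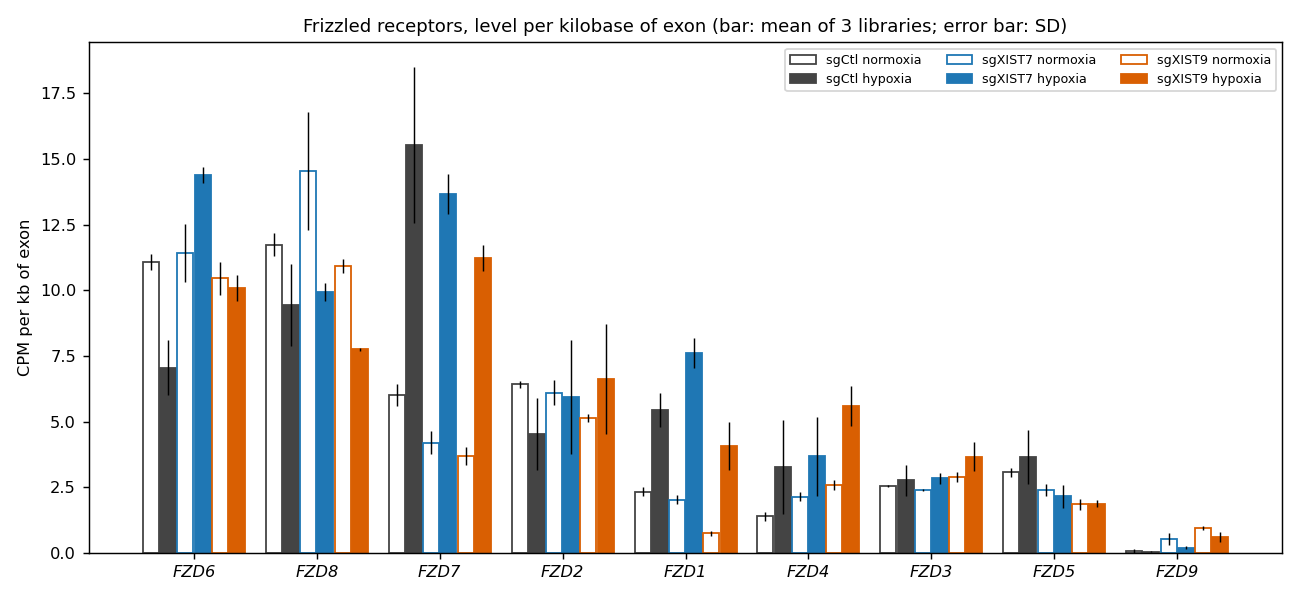
Mean level of the 9 Frizzled receptors tested, in CPM per kb of exon (vertical axis), in the 6 groups (open bars normoxia, filled bars hypoxia), with the SD of 3 libraries. FZD7 and FZD1 are higher in hypoxia than in normoxia in each clone, and FZD9 is close to 0 in both sgCtl groups.

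Inside the cell, beta-catenin (CTNNB1) was the most abundant member in CPM, with group means of 408 to 563 CPM, and it was called in no comparison. Its largest difference was in sgXIST9 against sgCtl in normoxia, -0.46 ± 0.10 on the log2 scale (SE) with an edgeR adjusted p = 0.00271. APC and AXIN1, the scaffold proteins of the destruction complex, were called in no comparison either, and their log2 changes ran from -0.47 to 0.35 over the 7 comparisons of guides or oxygen. LRP6 was at 68.8 to 112.9 CPM. It was lower in hypoxia in each clone, by 0.37, 0.60 and 0.37 on the log2 scale in sgCtl, sgXIST7 and sgXIST9 (edgeR adjusted p = 0.00678, 9.58e-05 and 0.00628), below the limit of 2-fold.

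Among the transcription factors, TCF7L2 led in normoxia and TCF7L1 in hypoxia in sgCtl and sgXIST7. TCF7L2 made up 74.7%, 76.2% and 84.9% of the summed TCF/LEF level in normoxia in sgCtl, sgXIST7 and sgXIST9. TCF7L1, mostly a repressor at Wnt target genes, made up 51.4% and 69.9% in sgCtl and sgXIST7 in hypoxia. In sgXIST9 hypoxia TCF7L2 and TCF7L1 held 43.9% and 38.7%, and their libraries overlapped, as they did in sgCtl hypoxia.

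**Figure D3:**
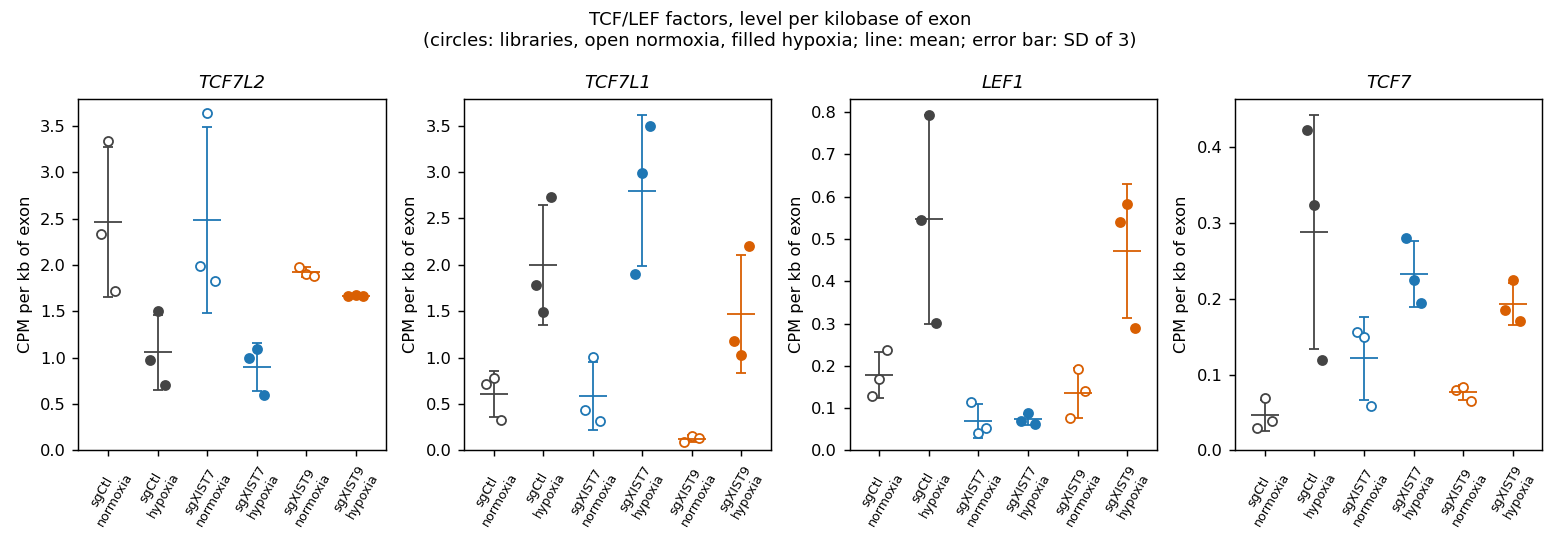
Levels of the 4 TCF/LEF factors in CPM per kb of exon (vertical axes, each with its own range) in the 6 groups, with a circle for each library and a line and bar for the mean and SD of 3. TCF7L1 is higher in all hypoxia libraries than in the normoxia libraries of the same clone, and LEF1 averages 0.0695 and 0.0733 CPM per kb in sgXIST7 normoxia and hypoxia.

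The 4 comparisons of an XIST guide with sgCtl ask how the Wnt genes stood after XIST knockdown. In normoxia, sgXIST7 had 2 members called higher (WNT9A and FZD9) and 2 lower (SFRP1 and DKK2) of 37, against 4.67% and 3.09% of all genes tested. In sgXIST9 in normoxia 3 were higher and 7 lower, against 3.93% and 3.77%. In hypoxia, sgXIST7 had 3 higher and 4 lower against 7.83% and 6.19%, and sgXIST9 had 4 higher and 2 lower against 6.14% and 3.39%. The share of members called lower in sgXIST9 in normoxia was the one farthest above its background. Of these 7 calls, those of WNT9A, WNT4 and TCF7L1 were lost without some single libraries. That of DKK2 was lost when only the groups compared were fitted. The median log2 change over the 37 members was between -0.17 and -0.06 in these comparisons, and between -0.02 and -0.01 over all genes tested.

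**Figure D4:**
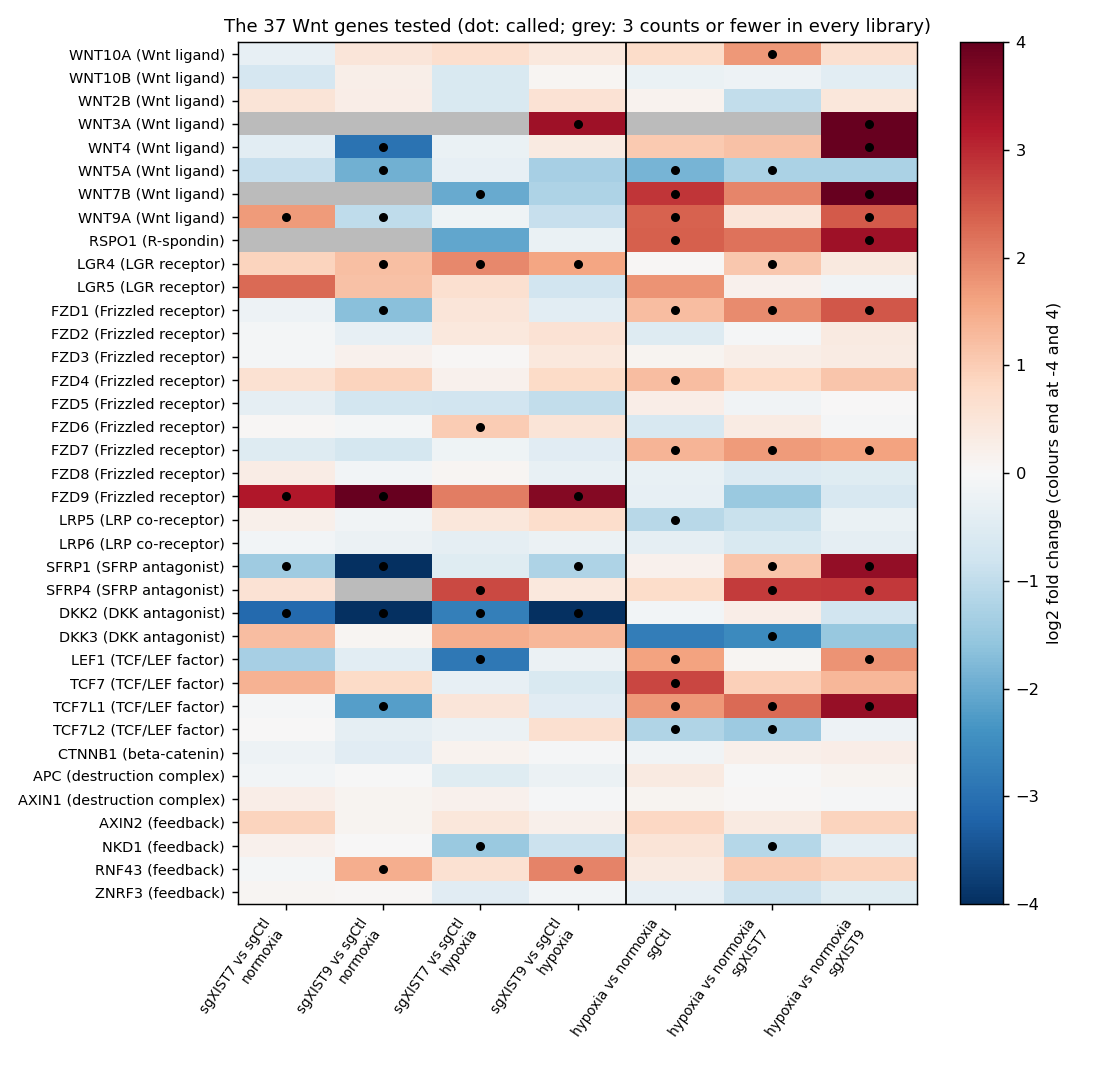
Fitted log2 fold changes (colour, ending at -4 and 4) of the 37 members tested (vertical axis, by role) in 4 comparisons of an XIST guide with sgCtl and 3 of hypoxia with normoxia (horizontal axis). Dots mark calls, and grey marks cells with 3 counts or fewer in every library compared; colours of other members with so few counts in 1 group depend on the prior count of the fit. DKK2 is lower in all 4 guide columns, and FZD1, FZD7 and TCF7L1 are higher in all 3 oxygen columns.

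The secreted antagonists DKK2 and SFRP1 were the members that fell in most comparisons with sgCtl. DKK2 (chr4:106921802-107036313, minus strand, hg38) varied widely within sgCtl, with 9.86, 6.19 and 1.49 CPM in normoxia and 9.19, 4.42 and 2.48 in hypoxia. In sgXIST7 it was at 0.649, 0.555 and 0.784 CPM in normoxia and 0.430, 0.498 and 1.73 in hypoxia. In sgXIST9 the values were 0.179, 0.266 and 0.175 CPM in normoxia and 0.137, 0.0908 and 0.126 in hypoxia, where no library had more than 3 counts. Every sgXIST library was thus below every sgCtl library apart from sgXIST7 hypoxia replicate 3, which lay above sgCtl normoxia replicate 3 but below all sgCtl libraries in hypoxia. DKK2 was called lower in sgXIST7 (log2 change -3.11 ± 0.62 in normoxia and -2.73 ± 0.62 in hypoxia, SE, edgeR adjusted p = 0.00125 and 0.00221). It was called lower in sgXIST9 in normoxia as well (-4.78 ± 0.73, edgeR adjusted p = 0.000104). In these bulk libraries, fewer cells with a transcript and less of it per cell cannot be told apart. In hypoxia the 264 counts in sgCtl and 7 in sgXIST9 gave a ratio of 47.6 after scaling to library size, with a 95% counting interval of 22.8 to 119.5. The sgXIST7 calls were lost in normoxia without sgCtl replicate 1 (-2.49), and in hypoxia without sgCtl replicate 1 (-2.11), sgXIST7 replicate 1 (-2.39) or sgXIST7 replicate 2 (-2.43). The calls in sgXIST7, and in sgXIST9 in normoxia, were also lost when only the groups compared were fitted (adjusted p = 0.013, 0.02 and 0.014).

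SFRP1, a Wnt-binding antagonist on chromosome 8 that is often silenced in carcinomas, fell in steps across the clones in normoxia. Its libraries were at 13.8, 17.3 and 15.9 CPM in sgCtl, 5.75, 6.16 and 5.75 in sgXIST7 and 0.357, 0.850 and 0.818 in sgXIST9. No library of one clone reached the range of the next. The log2 change against sgCtl was -1.41 ± 0.25 in sgXIST7 and -4.56 ± 0.31 in sgXIST9 (edgeR adjusted p = 0.000447 and 1.17e-08). In hypoxia the clones lay closer, with 19.3, 16.7 and 17.4 CPM in sgCtl, 12.4, 12.3 and 13.6 in sgXIST7 and 9.43, 9.08 and 4.10 in sgXIST9. There SFRP1 was called lower in sgXIST9 (-1.23 ± 0.25, edgeR adjusted p = 0.00112), a call that fell below 2-fold without sgXIST9 hypoxia replicate 3 (-0.94) and was lost when only these groups were fitted. The change in sgXIST7, -0.48 ± 0.24, had an edgeR adjusted p = 0.121.

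SFRP4 and DKK3, the other antagonists tested, were low throughout. SFRP4 was at 1.43, 2.31 and 1.99 CPM in sgXIST7 hypoxia and at 0.505 CPM or less in every other library. It was called higher there than in sgCtl hypoxia, where it had 0.188, 0.298 and 0.443 CPM (log2 change 2.65 ± 0.43, edgeR adjusted p = 0.000148). DKK3 was called in no comparison of guides with sgCtl. Its normoxia values were 0.403, 0.0773 and 0.459 CPM in sgCtl, 1.04, 0.555 and 0.697 in sgXIST7 and 0.357, 0.319 and 0.350 in sgXIST9.

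**Figure D5:**
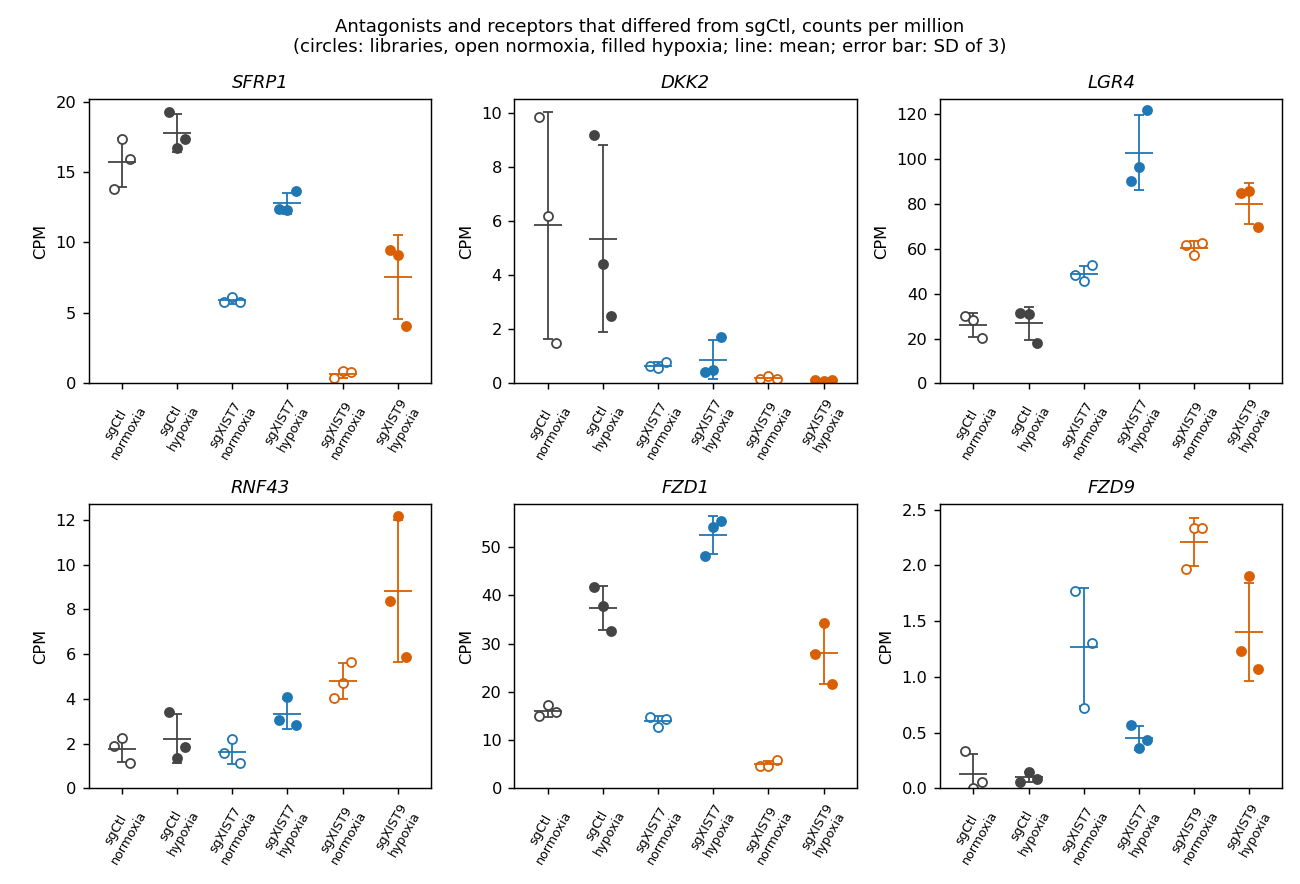
CPM (vertical axes from 0, each with its own range) of SFRP1, DKK2, LGR4, RNF43, FZD1 and FZD9 in the 6 groups, with a circle for each library, open in normoxia and filled in hypoxia, and a line and bar for the mean and SD of 3. LGR4 is at 31.2 CPM or less in every sgCtl library and at 45.5 or more in every sgXIST library.

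LGR4 (chr11:27365961-27472790, minus strand, hg38), the R-spondin receptor with by far the most counts, was higher in both sgXIST clones. In normoxia it was at 29.99, 28.3 and 20.04 CPM in sgCtl, 48.3, 45.5 and 52.5 in sgXIST7 and 61.7, 57.3 and 62.5 in sgXIST9. In hypoxia it was at 31.2, 31.0 and 18.2 CPM in sgCtl, 90.1, 96.4 and 122 in sgXIST7 and 84.9, 85.5 and 69.4 in sgXIST9. The sgXIST and sgCtl libraries did not overlap at either oxygen level. The log2 change was 1.21 ± 0.19 in sgXIST9 normoxia, 1.93 ± 0.19 in sgXIST7 hypoxia and 1.57 ± 0.19 in sgXIST9 hypoxia (edgeR adjusted p = 0.00012, 7.57e-07 and 7.98e-06). In sgXIST7 normoxia it was 0.90 ± 0.19 with an edgeR adjusted p = 0.00173, short of 2-fold. These LGR4 calls against sgCtl held without each library in turn.

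RNF43, a membrane ligase that clears Frizzled receptors, was higher in sgXIST9. In normoxia it was at 1.88, 2.24 and 1.15 CPM in sgCtl, 1.60, 2.22 and 1.13 in sgXIST7 and 4.06, 4.73 and 5.66 in sgXIST9. In hypoxia it was at 3.44, 1.34 and 1.86 CPM in sgCtl, 3.06, 4.08 and 2.85 in sgXIST7 and 8.39, 12.2 and 5.87 in sgXIST9. The sgXIST9 libraries lay above the others at both oxygen levels. The log2 change against sgCtl was 1.47 ± 0.37 in normoxia and 1.997 ± 0.36 in hypoxia (edgeR adjusted p = 0.00778 and 0.000421). The normoxia call was lost without any 1 of its 6 libraries (1.22 to 1.67), and the hypoxia call only when the 2 groups were fitted alone (adjusted p = 0.022). RNF43 shares 21.1% of its exon bases with TSPOAP1-AS1 on the other strand, whose 5 to 19 counts per library were below the 20 to 268 of RNF43. Whether the counting used strand is not given in the sources used here.

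ZNRF3, the partner ligase, was at 13.04 to 30.1 CPM and was called in no comparison. LGR5, the stem cell receptor of this family, had 0 to 18 counts per library and was called in none. RSPO1, the only R-spondin that passed the filter, had at most 3 counts in every normoxia library and was called in no comparison with sgCtl.

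FZD9 was nearly silent in sgCtl and present in the sgXIST clones. It had 5, 0 and 1 counts in sgCtl normoxia, 41, 13 and 30 in sgXIST7 and 44, 44 and 40 in sgXIST9. In hypoxia the counts were 1, 3 and 1 in sgCtl, 12, 8 and 5 in sgXIST7 and 27, 42 and 17 in sgXIST9. The sgXIST libraries did not overlap those of sgCtl at either oxygen level. In normoxia the log2 change was 3.21 ± 0.59 in sgXIST7 and 3.99 ± 0.57 in sgXIST9 (edgeR adjusted p = 0.000636 and 5.54e-05). In hypoxia FZD9 was called in sgXIST9, where its CPM was 13.6 times that of sgCtl with a 95% counting interval of 5.62 to 43.1. In sgXIST7 hypoxia the edgeR adjusted p was 0.0236.

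FZD1 (chr7:91264433-91271326, plus strand, hg38) was lower in sgXIST9 in normoxia. It was at 14.96, 17.2 and 15.8 CPM in sgCtl, 14.8, 12.8 and 14.3 in sgXIST7 and 4.64, 4.73 and 5.84 in sgXIST9. The sgXIST9 libraries were below all others, and the log2 change against sgCtl was -1.66 ± 0.16 (edgeR adjusted p = 9.55e-07). In hypoxia the changes against sgCtl were 0.49 ± 0.15 in sgXIST7 and -0.42 ± 0.15 in sgXIST9, neither called. FZD6 was called higher in sgXIST7 hypoxia by 1.03 ± 0.11 (edgeR adjusted p = 2.21e-06), at 54.4 to 56.4 CPM against 22.7 to 30.2 in sgCtl, and fell short of 2-fold without sgCtl hypoxia replicate 3 (0.91) and under upper-quartile scaling (0.99).

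Of the ligands, WNT9A (chr1:227918656-227947932, minus strand, hg38) moved in opposite directions in the 2 clones in normoxia. It was at 1.61, 1.86 and 1.84 CPM in sgCtl, 5.19, 6.44 and 5.88 in sgXIST7 and 0.893, 0.797 and 0.934 in sgXIST9. The 3 clones did not overlap. The log2 change was 1.72 ± 0.22 in sgXIST7 and -1.01 ± 0.25 in sgXIST9 (edgeR adjusted p = 1.71e-05 and 0.00645). The second call sat at the fold limit and was lost without any 1 of its 6 libraries (-1.07 to -0.95), under DESeq2 (-0.998), under RLE scaling (-0.99), with no filter on low counts (adjusted p = 0.015) and with a prior count of 2 (-0.93).

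WNT5A was lower in sgXIST9 in normoxia. It was at 5.97, 7.66 and 6.89 CPM in sgCtl, 1.95, 4.83 and 4.05 in sgXIST7 and 1.92, 1.81 and 1.64 in sgXIST9. The log2 change in sgXIST9 was -1.93 ± 0.36 (edgeR adjusted p = 0.000831). In sgXIST7, whose libraries were also below those of sgCtl, it was -0.93 ± 0.35 with an edgeR adjusted p = 0.0679.

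The rarest ligands moved at a handful of counts. WNT4, known from the development of the female reproductive tract, had 5, 6 and 3 counts in sgCtl normoxia and 1, 0 and 1 in sgXIST9, a ratio of 9.03 with a 95% counting interval of 2.07 to 81.8. This call was lost under DESeq2 (adjusted p = 0.031), with no filter on low counts (0.013) and without sgCtl normoxia replicate 1 or 2 or any 1 sgXIST9 normoxia library (adjusted p = 0.018 to 0.042). WNT7B had 10, 24 and 7 counts in sgCtl hypoxia and 4, 5 and 2 in sgXIST7 hypoxia, and its call (log2 change -2.02 ± 0.48, edgeR adjusted p = 0.00386) was lost under DESeq2 (0.018), with no filter on low counts (0.011), in a fit of the 2 groups (0.018) and without any 1 sgXIST7 hypoxia library. WNT3A had 20, 33 and 17 counts in sgXIST9 hypoxia and at most 3 in each of the other 15 libraries. Its level there was 11.1 times that in sgCtl hypoxia, with a 95% counting interval of 4.54 to 35.3, and the call was lost without sgCtl hypoxia replicate 2 (adjusted p = 0.011) and in a fit of the 2 groups (0.012).

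WNT10B and WNT2B were called against sgCtl in neither clone. WNT10B was at 4.14 ± 0.41 CPM in sgCtl normoxia, 2.62 ± 0.04 in sgXIST7 and 4.90 ± 0.50 in sgXIST9 (SD, n = 3). WNT2B shares 21.2% of its exon bases with ST7L on the other strand, which had 169 to 445 counts per library against 9 to 119 for WNT2B.

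LEF1 and NKD1 were lower in sgXIST7 than in sgCtl in hypoxia. LEF1, a factor that is itself a Wnt target, had 36, 66 and 14 counts in sgCtl hypoxia, 6, 8 and 3 in sgXIST7 and 49, 53 and 19 in sgXIST9, or 2.25, 3.28 and 1.24, 0.287, 0.362 and 0.259, and 2.23, 2.41 and 1.20 CPM. The sgXIST7 libraries lay below the other hypoxia libraries, with a log2 change of -2.87 ± 0.48 (edgeR adjusted p = 0.000162). NKD1, an inhibitor of Dishevelled, was at 10.1, 11.8 and 4.25 CPM in sgCtl hypoxia, 4.06, 2.85 and 2.42 in sgXIST7 and 5.38, 6.13 and 2.90 in sgXIST9. Its log2 change in sgXIST7 was -1.48 ± 0.32 (edgeR adjusted p = 0.00143), lost without sgCtl hypoxia replicate 2 (-1.21, adjusted p = 0.011) and in a fit of the 2 groups (adjusted p = 0.031). In normoxia NKD1 was at 5.70 to 7.497 CPM in every library.

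AXIN2, the most widely used readout of beta-catenin activity, was called in no comparison. Its libraries were at 2.82, 2.55 and 3.10 CPM in sgCtl normoxia, 5.84, 4.94 and 5.05 in sgXIST7 and 2.99, 3.19 and 3.04 in sgXIST9. In hypoxia they were at 5.0005, 5.46 and 4.43, 6.69, 6.62 and 6.99, and 6.75, 4.49 and 5.93 CPM. The sgXIST7 normoxia libraries lay above those of sgCtl by 0.90 ± 0.18 on the log2 scale with an edgeR adjusted p = 0.00154, short of 2-fold. TCF7L1 was lower in sgXIST9 normoxia, at 0.268, 0.478 and 0.409 CPM against 2.15, 2.32 and 0.976 in sgCtl and 1.30, 2.999 and 0.959 in sgXIST7. The log2 change against sgCtl was -2.22 ± 0.54 (edgeR adjusted p = 0.00618), and this call was lost without sgCtl normoxia replicate 1 (-2.07) or 2 (-2.01) or any 1 sgXIST9 normoxia library (-2.41 to -1.995).

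The 3 comparisons of hypoxia with normoxia ask how the same genes responded to low oxygen in each clone. In sgCtl 9 members were called higher and 3 lower of 37, against 11.3% and 8.49% of all genes tested. In sgXIST7 the counts were 7 higher and 4 lower against 15.1% and 12.2%, and in sgXIST9 they were 11 higher and 0 lower against 14.7% and 8.58%. At an unadjusted edgeR p under 0.05, in either direction, were 21, 26 and 25 of the 37 members in sgCtl, sgXIST7 and sgXIST9. Of all 14938 genes tested, 8507, 9422 and 8962 were. DESeq2 called WNT5A lower with hypoxia in sgXIST9. The median log2 change of the 37 members was 0.26, 0.24 and 0.37 in sgCtl, sgXIST7 and sgXIST9, and 0.02, 0.01 and 0.09 over all genes tested. The hypoxia genes ANKRD37, CA9, NDRG1, PDK1 and VEGFA were called higher in each clone.

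FZD7, FZD1 and TCF7L1 were called higher in hypoxia in each of the 3 clones. FZD7 (chr2:202034587-202038437, plus strand, hg38) went from 22.3, 22.1 and 25.0 CPM to 71.8, 58.7 and 49.0 in sgCtl. It went from 17.4, 14.3 and 16.8 to 53.9, 54.7 and 49.3 CPM in sgXIST7, and from 14.8, 15.2 and 12.7 to 45.4, 42.2 and 42.2 in sgXIST9. Every hypoxia library was above every normoxia library, and the log2 changes were 1.37 ± 0.13, 1.70 ± 0.13 and 1.60 ± 0.13 (edgeR adjusted p = 3.6e-07, 1.62e-08 and 4.63e-08). FZD1 reached 41.7, 37.9 and 32.7 CPM in sgCtl hypoxia, 48.1, 54.1 and 55.3 in sgXIST7 and 27.9, 34.3 and 21.7 in sgXIST9, from the normoxia values given above. Its log2 changes were 1.23 ± 0.15, 1.91 ± 0.15 and 2.47 ± 0.16 (edgeR adjusted p = 5.9e-06, 2.47e-08 and 4.23e-09). TCF7L1 (chr2:85133392-85310387, plus strand, hg38) reached 5.31, 4.47 and 8.15 CPM in sgCtl, 5.69, 8.93 and 10.4 in sgXIST7 and 3.51, 3.09 and 6.56 in sgXIST9, with no overlap with normoxia in any clone. Its log2 changes were 1.72 ± 0.44, 2.27 ± 0.43 and 3.49 ± 0.51 (edgeR adjusted p = 0.00339, 0.000221 and 2.19e-05), and the call in sgCtl was lost without normoxia replicate 3 (1.40) or hypoxia replicate 3 (1.45).

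The 250 bases before the start of 3 members that were higher in hypoxia are shown because these genes rose in at least 2 clones. They also differ in whether they hold the letters ACGTG, a form of the core to which hypoxia-inducible factors bind. The other form, GCGTG, is not marked, and its share over all promoters was not counted. They are RefSeq sequences of build GRCh38.p14, written 5′ to 3′ on the strand of the gene, with any match to ACGTG or to CTTTGA, the core of TCF/LEF sites, on either strand in capitals. The windows are chr2:85133142-85133391 (plus strand) for TCF7L1, chr7:91264183-91264432 (plus strand) for FZD1 and chr1:227947933-227948182 (minus strand) for WNT9A.
TCF7L1: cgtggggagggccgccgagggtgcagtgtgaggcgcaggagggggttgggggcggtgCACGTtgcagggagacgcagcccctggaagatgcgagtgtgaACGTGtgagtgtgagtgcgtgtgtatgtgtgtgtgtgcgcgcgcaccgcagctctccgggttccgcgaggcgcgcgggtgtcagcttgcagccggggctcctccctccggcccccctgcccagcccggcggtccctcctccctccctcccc
FZD1: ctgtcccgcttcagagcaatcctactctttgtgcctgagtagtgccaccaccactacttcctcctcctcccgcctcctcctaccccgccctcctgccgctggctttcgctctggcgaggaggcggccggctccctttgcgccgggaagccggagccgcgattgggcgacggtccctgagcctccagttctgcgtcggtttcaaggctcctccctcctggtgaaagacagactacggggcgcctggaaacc
WNT9A: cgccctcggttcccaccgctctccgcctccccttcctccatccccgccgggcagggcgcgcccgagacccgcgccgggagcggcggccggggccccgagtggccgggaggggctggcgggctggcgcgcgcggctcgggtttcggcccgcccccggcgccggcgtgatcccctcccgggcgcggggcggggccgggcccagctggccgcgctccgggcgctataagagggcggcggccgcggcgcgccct
TCF7L1 holds ACGTG at 2 places, once on each strand, and FZD1 and WNT9A hold neither ACGTG nor CTTTGA. The windows of TCF7L1 and WNT9A also hold GCGTG. The table of promoters held 40 of the 58 members, and FZD7 was not among them. ACGTG stood in 4 of the 12 promoters of members called higher in hypoxia in at least 1 clone (TCF7L1, RSPO1, SFRP4 and WNT3A), in 7 of the 40 (17.5%) and in 18.5% of all 35116 promoters of the same length. CTTTGA stood in 1 of the 40 and in 11.2% of all. The motifs do not overlap each other in these windows, and these matches are descriptions of letters in a window.

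WNT9A went from the normoxia values given above to 11.4, 9.18 and 6.91 CPM in sgCtl hypoxia and to 4.79, 5.81 and 3.85 in sgXIST9 hypoxia. The log2 changes were 2.37 ± 0.22 and 2.46 ± 0.23 (edgeR adjusted p = 2.37e-07 and 1.83e-07). In sgXIST7, where it was already high in normoxia, it reached 7.45, 8.16 and 8.98 CPM, a change of 0.49 ± 0.20 with an edgeR adjusted p = 0.043, not called. WNT10A was called in sgXIST7 alone, from 0.822, 1.11 and 0.697 to 2.05, 2.72 and 4.06 CPM (log2 change 1.73 ± 0.31, edgeR adjusted p = 0.000137). Its changes in sgCtl (0.73 ± 0.32) and sgXIST9 (0.64 ± 0.30) were in the same direction, and the difference from sgCtl had an edgeR adjusted p = 0.16.

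WNT5A went the other way. It stood at 1.56, 2.23 and 1.86 CPM in sgCtl hypoxia, 1.05, 1.27 and 2.33 in sgXIST7 and 0.775, 1.09 and 0.316 in sgXIST9. It was called lower in sgCtl (log2 change -1.85 ± 0.37, edgeR adjusted p = 0.000505) and in sgXIST7 (-1.26 ± 0.37, adjusted p = 0.00796), and in sgXIST9 the change was -1.25 ± 0.40 with an adjusted p = 0.0143. The sgXIST7 call was lost in a fit of the 2 groups (adjusted p = 0.025) and without sgXIST7 normoxia replicate 2 (-1.002) or 3 (-1.16) or hypoxia replicate 1 (-1.03) or 2 (-1.13).

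Ligands with few or no normoxia counts appeared in hypoxia. WNT4 had 22, 15 and 13 counts in sgXIST9 hypoxia against 1, 0 and 1 in normoxia, 24.4 times the level with a 95% counting interval of 6.41 to 206.9. WNT3A was 22.8 times its normoxia level in the same clone, with an interval of 7.48 to 113. WNT7B had 5 counts in all in sgCtl normoxia and 41 in hypoxia, a ratio of 7.82 with an interval of 3.09 to 25.4. In sgXIST9 WNT7B had no count in normoxia and 10, 6 and 5 in hypoxia, which is at least 2.23-fold higher when normoxia is set at 3 counts per library. WNT6 and WNT7A, which did not pass the filter, had no count in the 9 normoxia libraries. WNT7A had 10, 14 and 1 counts in sgCtl hypoxia, 0, 0 and 2 in sgXIST7 and 6, 5 and 3 in sgXIST9, and WNT6 had 6, 7 and 2, then 1, 8 and 6, then 2, 1 and 3. WNT11 had 0 to 2 counts in normoxia and 1 to 7 in hypoxia. With no filter on low counts, edgeR called WNT7A and WNT11 higher in sgCtl and sgXIST9 and WNT6 higher in sgCtl and sgXIST7.

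Of the other ligands that did not pass, WNT1, WNT9B and WNT16 had no count in any library, WNT2, WNT3, WNT5B and WNT8A had at most 4 counts in each library, and WNT8B had at most 11. For a ligand without a count, 3 counts would be 0.13 to 0.266 CPM, so that a lower level was not detectable at this depth.

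The antagonist SFRP1 was called higher in hypoxia in sgXIST7 (log2 change 1.12 ± 0.25, edgeR adjusted p = 0.000988) and in sgXIST9 (3.51 ± 0.31, adjusted p = 9.64e-08). In sgCtl, where it was high in normoxia, its change was 0.18 ± 0.24 with an adjusted p = 0.556. SFRP4 went from 0.130, 0.444 and 0.261 to 1.43, 2.31 and 1.99 CPM in sgXIST7, a log2 change of 2.79 ± 0.42 (edgeR adjusted p = 2.38e-05). In sgXIST9 it went from 2, 0 and 1 counts to 8, 8 and 8, a ratio of 7.80 with an interval of 2.37 to 40.5. SFRP5, which did not pass the filter, had at most 1 count in each sgCtl and normoxia library, 7, 11 and 12 in sgXIST7 hypoxia and 8, 3 and 8 in sgXIST9 hypoxia. DKK3 was called lower in sgXIST7, from 1.04, 0.555 and 0.697 to 0.191, 0.136 and 0 CPM (log2 change -2.56 ± 0.58, edgeR adjusted p = 0.00115). Its libraries did not overlap between oxygen levels in the other clones either, with 6, 1 and 8 counts in sgCtl normoxia and 1, 1 and 0 in hypoxia, and 8, 6 and 6 in sgXIST9 normoxia and 2, 4 and 1 in hypoxia. Neither was called (edgeR adjusted p = 0.0115 and 0.0549), and the sgCtl change passed without normoxia replicate 2 (adjusted p = 0.00388). DKK2 did not change with oxygen by more than the spread between libraries in any clone (adjusted p = 0.56 to 0.884).

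The R-spondin signalling genes RSPO1 and LGR4 were called in some of the clones. RSPO1 had 3, 0 and 3 counts in sgCtl normoxia and 16, 12 and 6 in hypoxia, a ratio of 5.41 with an interval of 2.24 to 15.8. In sgXIST9 it had 2, 1 and 0 counts in normoxia and 20, 14 and 3 in hypoxia, a ratio of 12.03 with an interval of 3.81 to 61.0. The sgCtl call was lost under DESeq2 (adjusted p = 0.016), with no filter (0.012) and without any 1 normoxia library or hypoxia replicate 1 or 2 (0.014 to 0.044), and the sgXIST9 call without hypoxia replicate 1 (0.011). LGR4 was called higher in sgXIST7 by 1.07 ± 0.18 (edgeR adjusted p = 8.82e-05), short of 2-fold without hypoxia replicate 3 (0.95), and its change in sgCtl was 0.05 ± 0.19. In sgXIST9 LGR4 was also higher without overlap, at 57.3 to 62.5 CPM in normoxia and 69.4 to 85.5 in hypoxia, but not called. LRP5, at 48.3 to 57.9 CPM in sgCtl normoxia and 20.8 to 28.1 in hypoxia, was called lower there by 1.12 on the log2 scale with an SE of 0.15 (edgeR adjusted p = 8.4e-06). LRP5 was lower without overlap but not called in sgXIST7 (49.1 to 74.5 CPM in normoxia, 30.3 to 35.0 in hypoxia) and sgXIST9 (45.4 to 49.0 and 36.6 to 41.9). The sgXIST7 change passed without normoxia replicate 1 (-1.01). FZD4 was called higher in sgCtl, at 10.3, 11.6 and 9.01 CPM in normoxia and 32.9, 30.4 and 8.86 in hypoxia, where replicate 3 lay below the normoxia range, against the direction of the call. In sgXIST9 it went from 18.3, 20.7 and 18.2 to 46.3, 42.5 and 35.2 CPM without overlap, a log2 change of 1.12 ± 0.34 that just missed the threshold (edgeR adjusted p = 0.0105) and passed it under DESeq2 (0.00414), upper-quartile scaling (0.00769), a mean of at least 1 CPM (0.00984), a fit of the 2 groups (0.000223), the replicate block (0.00248) and without the hypoxia libraries numbered 3 (1.78e-07). In sgXIST7 its log2 change was 0.79 ± 0.34 (edgeR adjusted p = 0.0551), and 1.09 without hypoxia replicate 3 (adjusted p = 0.00986). The sgCtl call was lost in a fit of the 2 groups (adjusted p = 0.043), with no filter (0.03) and without any 1 of 5 libraries, sgCtl hypoxia replicate 3 being the only one whose removal kept it. FZD4 shares 18.9% of its exon bases with PRSS23 on the other strand, which was not called with oxygen in any clone. In sgCtl PRSS23 had 168, 139 and 198 counts in normoxia and 314, 320 and 67 in hypoxia. As for FZD4, hypoxia replicate 3 was the lowest. The part of PRSS23 reads in the FZD4 counts was not tested.

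Among the TCF/LEF factors, LEF1 was at 0.537, 0.696 and 0.976 CPM in sgCtl normoxia, 0.476, 0.167 and 0.218 in sgXIST7 and 0.312, 0.797 and 0.584 in sgXIST9. It was called higher in hypoxia in sgCtl (log2 change 1.62 ± 0.43, edgeR adjusted p = 0.00483) and sgXIST9 (1.81 ± 0.43, adjusted p = 0.00202). In sgXIST7 its change was 0.07 ± 0.56, and the difference from sgCtl had an adjusted p = 0.178. The LEF1 call in sgCtl was lost in a fit of the 2 groups (adjusted p = 0.016) and without normoxia replicate 1 (1.43) or 2 (1.57) or hypoxia replicate 1 (1.64) or 2 (1.25), and that in sgXIST9 without normoxia replicate 1 (1.49). TCF7 went from 0.134, 0.309 and 0.172 to 1.88, 1.44 and 0.532 CPM in sgCtl, a log2 change of 2.68 ± 0.50 (edgeR adjusted p = 0.000299). In sgXIST7 TCF7 went from 0.692, 0.666 and 0.261 to 1.24, 0.997 and 0.863 CPM, and in sgXIST9 from 0.357, 0.372 and 0.292 to 0.820, 0.998 and 0.757, without overlap and without a call (adjusted p = 0.0569 and 0.0194).

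TCF7L2, the factor that led in normoxia, was called lower in hypoxia in sgCtl and sgXIST7. It was at 9.13 to 17.6 CPM in sgCtl normoxia and 3.72 to 7.94 in hypoxia, and at 9.67 to 19.3 and 3.19 to 5.80 in sgXIST7. The log2 changes were -1.19 ± 0.31 and -1.44 ± 0.31 (edgeR adjusted p = 0.00407 and 0.000715), and that in sgXIST9 was -0.21 ± 0.30. The TCF7L2 call in sgCtl was lost in a fit of the 2 groups (adjusted p = 0.025) and without normoxia replicate 2 (-0.92), hypoxia replicate 1 (-1.12) or hypoxia replicate 3 (-0.97).

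Of the feedback genes, AXIN2 was higher in hypoxia by 0.81 ± 0.18 in sgCtl, 0.36 ± 0.17 in sgXIST7 and 0.90 ± 0.18 in sgXIST9 on the log2 scale (edgeR adjusted p = 0.00151, 0.0886 and 0.000453), with no overlap in any clone and no call. NKD1 was called lower in sgXIST7, by 1.13 on the log2 scale with an SE of 0.32 (adjusted p = 0.00558), a call lost without any 1 sgXIST7 normoxia library or hypoxia replicate 2 or 3, whose lowest value gave a change of -0.98. ZNRF3 was lower by 0.87 in sgXIST7 (adjusted p = 0.000625), by 0.49 in sgXIST9 (0.0312) and by 0.33 in sgCtl (0.139) on the log2 scale, not called.

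Whether the response to oxygen differed between a sgXIST clone and sgCtl was tested as an interaction in the same fit. In sgXIST7 no member had a response called larger and 1 called smaller, against 0.904% and 0.616% of all genes tested. This was WNT9A, whose log2 response was smaller by 1.89 ± 0.29 (edgeR adjusted p = 0.00166). At an unadjusted edgeR p under 0.05, 12 of the 37 members differed, against 3988 of the 14938 genes tested. DESeq2 called LGR4 (1.03) and NKD1 (-1.66) as well. In sgXIST9, 2 members had a larger response and none a smaller one, against 0.663% and 0.348%: SFRP1, by 3.33 ± 0.40 (edgeR adjusted p = 0.000187), and FZD1, by 1.24 ± 0.22 (adjusted p = 0.0047). Here too 12 of the 37 members differed at an unadjusted p under 0.05, against 3206 of the 14938 genes tested. In these 3 cases the clones lay farther apart in normoxia than in hypoxia, as the values above show. The FZD1 call was lost without sgCtl normoxia replicate 2 (1.19) or 3 (1.25), sgCtl hypoxia replicate 2 (1.25), sgXIST9 normoxia replicate 1 (1.18) or 2 (1.20) or sgXIST9 hypoxia replicate 1 (1.25), and in a fit of the 4 groups alone (adjusted p = 0.018).

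The 2 sgXIST clones were also set against each other, since they differ in guide and in how much XIST remained. In normoxia 3 members were called higher in sgXIST7 than in sgXIST9 and 1 lower, against 2.09% and 1.31% of all genes tested. SFRP1 was higher by 3.14 ± 0.31, WNT9A by 2.73 ± 0.23 and FZD1 by 1.47 ± 0.16 on the log2 scale (edgeR adjusted p = 2.28e-06, 3.32e-07 and 8.64e-06), and RNF43 was lower by 1.55 with an SE of 0.36 (adjusted p = 0.00964). In hypoxia 1 was higher and 3 lower against 2.06% and 2.40%. SFRP4 was higher by 2.22 ± 0.40 (adjusted p = 0.00105, lost without sgXIST9 hypoxia replicate 1, adjusted p = 0.01), and LEF1 and RNF43 were lower by 2.64 and 1.40 on the log2 scale (adjusted p = 0.00099 and 0.0096). WNT3A was 31.9 times as high in sgXIST9 hypoxia, with an interval of 8.52 to 268.9. The RNF43 calls were lost without any 1 library of the 6 in normoxia (-1.81 to -1.33) and without any of 5 in hypoxia (-1.57 to -1.09), sgXIST9 hypoxia replicate 3 being the one whose removal kept it.

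A wider list of 87 Wnt pathway genes outside these families held 73 that were tested: secretion factors, other secreted antagonists, other receptors, planar polarity genes, cytoplasmic regulators, nuclear cofactors and textbook target genes. Against sgCtl, 9 were higher and 7 lower in sgXIST7 normoxia, 6 and 8 in sgXIST9 normoxia, 12 and 12 in sgXIST7 hypoxia and 8 and 9 in sgXIST9 hypoxia. The shares of all genes tested were 4.67% and 3.09%, 3.93% and 3.77%, 7.83% and 6.19%, and 6.14% and 3.39%. The median log2 change of the list was between -0.11 and 0.06 in these comparisons. PRICKLE1, a planar polarity gene, was at 0.891 ± 0.44 CPM in sgCtl normoxia, 59.9 ± 5.8 in sgXIST7 and 44.8 ± 3.2 in sgXIST9 (SD, n = 3), and was called higher in both clones at both oxygen levels. The Wnt-binding antagonist WIF1 was at 3.14 ± 2.8, 41.5 ± 3.2 and 11.4 ± 0.83 CPM in the same groups and was called in sgXIST7 only, at both oxygen levels. Of the 5 secreted antagonists tested in this list, 3 were called higher in sgXIST7 normoxia and 4 in sgXIST7 hypoxia. In sgXIST9, 1 was called higher in normoxia and 2 in hypoxia. Only the membrane antagonist APCDD1 was called lower, in all 4 comparisons, as DKK2 was. It was at 1.86 ± 0.55 CPM in sgCtl normoxia, 0.339 ± 0.12 in sgXIST7 and 0.0177 ± 0.031 in sgXIST9. SOX9, at 5.48 ± 0.48 CPM in sgCtl normoxia and 0.175 ± 0.046 and 0.0956 ± 0.12 in the sgXIST clones, and TWIST1, at 3.93 ± 0.66, 0.616 ± 0.38 and 0.0475 ± 0.045, were called lower in all 4. ID2 and SNAI2 were called higher in normoxia in both clones, from 5.40 ± 3.5 to 52.5 ± 17 and 88.5 ± 12 CPM and from 0.291 ± 0.16 to 3.48 ± 0.68 and 5.98 ± 1.3 CPM.

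With hypoxia, 11 genes of the wider list were higher and 4 lower in sgCtl, 9 and 5 in sgXIST7 and 13 and 5 in sgXIST9, with median log2 changes of 0.17, 0.06 and 0.19. Of all genes tested, 11.3% and 8.49%, 15.1% and 12.2%, and 14.7% and 8.58% were called, so that the counts of genes higher were near the background. The target genes ASCL2, JAG1, TNFRSF19, L1CAM and EPHB3 were called higher in each clone and were the largest changes. Of the 20 target genes tested, 9 were called higher and 1 lower in sgCtl, 6 and 2 in sgXIST7, and 6 and 3 in sgXIST9. ASCL2, a stem cell factor of the intestine, had at most 2 counts in the normoxia libraries and was at 1.70 ± 0.40 CPM in sgCtl hypoxia, 6.88 ± 1.2 in sgXIST7 and 4.203 ± 0.71 in sgXIST9. TNFRSF19 was at 2.81 ± 0.33, 5.03 ± 1.1 and 1.54 ± 0.26 CPM in hypoxia and under 0.25 CPM on average in normoxia. Between the clones in normoxia, WLS, the carrier that brings Wnt proteins to the cell surface, was called lower in sgXIST9 (3.65 ± 2.0 CPM) than in sgXIST7 (14.6 ± 2.0), with 23.1 ± 1.1 CPM in sgCtl. The corepressors TLE1 and TLE3 differed between the clones in opposite directions, TLE1 at 6.72 ± 0.69 and 1.64 ± 0.69 CPM and TLE3 at 5.66 ± 1.6 and 33.1 ± 1.1 CPM in sgXIST7 and sgXIST9. Of the wider list, 1 gene differed in its response to oxygen in each sgXIST clone, CDX2 in sgXIST7 and BIRC5 in sgXIST9.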

How the data were processed

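Total RNA of the 18 samples was sequenced from stranded libraries. Per the labels and the study's methods, the authors trimmed reads, aligned them to hg38 with HISAT2, counted them with featureCounts and deposited whole-number counts per gene. The strand setting of the counting and the versions are not given in the sources used here. Of 28279 lines in the deposited table, 2 were broken and left out (0 counts). Columns were matched to samples by the names in the labels. The 58 members, the wider lists and the tests were chosen with earlier results of these data known.

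Counts were tested with edgeR 4.0.16 (R 4.3.3) by the quasi-likelihood test on 14938 genes kept by filterByExpr (minimum count 10, minimum total 15), TMM scaling, 6 groups in 1 fit and Benjamini-Hochberg adjustment over all genes tested. A call needed an adjusted p under 0.01 and an absolute log2 change above 1. CPM use the TMM-scaled library sizes, and fold changes a prior count of 0.125. The pipeline was tested on simulated data: of 198 genes changed by 2 on the log2 scale among 14629, 98.5% were called in sgXIST7 against sgCtl in normoxia and 86.4% in the interaction. The simulation gave every gene the same dispersion, 0.0321, and no outlying library. These shares therefore do not give the power for members that vary more between libraries. With 3 libraries a group, an exact permutation test of a single gene cannot go below 0.1, so none was used. Intervals of count ratios are exact binomial 95% intervals and, like the floor of 3 counts, cover counting error only.

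Named members were those called in at least 1 comparison of guide, oxygen or both (the 20 with the largest change in full, the other 4 by range), the main feedback and target genes, and the ligands above 3 counts in every library of a group; from the wider lists, at most 5 called genes with the largest change per comparison. Exon overlaps came from the coordinates in the table. Replicate numbers: deviations of same-numbered libraries correlated above 0.1 for every pair only between sgCtl and sgXIST7 in normoxia (0.148 to 0.379) and between sgCtl and sgXIST9 in hypoxia (0.197 to 0.566); the labels name no shared batch. Alternatives were DESeq2 1.42.0, RLE and upper-quartile scaling, other filters, prior count, thresholds, fits of the groups compared only, a replicate block, and leaving out each library or the 3 hypoxia libraries numbered 3.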

Additional observations from a re-analysis of the deposited data

Results flagged for a closer look

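The responses of 3 Wnt genes to 24 h of hypoxia differed between a sgXIST clone and sgCtl in the edgeR interaction test over all genes. The log2 response of the ligand WNT9A was -1.89 relative to that of sgCtl in sgXIST7 (adjusted p = 0.00166). That of the antagonist SFRP1 was larger by 3.33 in sgXIST9 (adjusted p = 0.000187), and that of the receptor FZD1 was larger by 1.24 in sgXIST9 (adjusted p = 0.0047). The comparisons use the same sgCtl libraries.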

How the results depend on the processing

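Of the 72 calls of a member in a comparison, 68 held under DESeq2, 70 under RLE and 70 under upper-quartile scaling, 67 with no filter on low counts, 71 with a prior count of 2 and 49 of the 54 that involve hypoxia without the hypoxia libraries numbered 3, where SFRP1 (-0.96), FZD6 (0.91), TCF7L2 (-0.97), LGR4 (0.95) and NKD1 (-0.98) fell short of 2-fold in 1 comparison each. Fitting only the groups compared kept 51 of 65. Leaving out each library in turn kept 47 of 72 throughout. No call turned its direction in these alternatives. With only the groups compared, the number of members called fell from 7 to 4 in sgXIST7 against sgCtl in hypoxia, from 6 to 3 in sgXIST9 against sgCtl in hypoxia, from 12 to 6 for hypoxia in sgCtl and from 2 to 1 for the sgXIST9 interaction. For hypoxia in sgCtl, FZD4, TCF7L2 and LEF1 were lost in this fit, and the other missing calls were not examined in it. A mean of at least 1 CPM left 7 of 11 for hypoxia in sgXIST9 and 1 of 4 between the clones in hypoxia, since fewer genes were tested. With no minimum fold, 7 in place of 4 were called in sgXIST7 normoxia, 10 in place of 6 in sgXIST9 hypoxia and 2 in place of 1 in the sgXIST7 interaction. An adjusted p under 0.05 gave 3 in the sgXIST7 interaction and 7 in place of 4 between the clones, both in normoxia and in hypoxia. The sgXIST7 interaction held 3 members under DESeq2, 2 with no filter and 2 without the hypoxia libraries numbered 3, and the sgXIST9 interaction 4 without those libraries. The cause was not tested.

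Leaving out 1 library at a time, the counts ranged as follows: 4 to 4 for sgXIST7 and 6 to 8 for sgXIST9 against sgCtl in normoxia, 5 to 7 and 5 to 9 in hypoxia, 8 to 11, 9 to 12 and 10 to 13 for hypoxia in sgCtl, sgXIST7 and sgXIST9, 1 to 2 for each interaction, and 3 to 4 and 2 to 5 between the clones in normoxia and hypoxia.

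With the replicate number as a block, the 72 calls were kept and 6 added. In sgXIST7 against sgCtl in normoxia and sgXIST9 against sgCtl in hypoxia, where every same-numbered pair correlated above 0.1, the block left the counts at 4 and 6. Elsewhere at least 1 same-numbered pair correlated below 0.1. In hypoxia some pairs still correlated, at 0.302, 0.0182 and 0.38 between sgCtl and sgXIST7 and at 0.294, -0.0676 and 0.492 between the sgXIST clones. In these other comparisons the block added RSPO1 in sgXIST7 against sgCtl in hypoxia (-2.12, 8 members in place of 7), WNT2B in the hypoxia response of sgXIST7 and between the clones in hypoxia, and TCF7, FZD4 and WNT5A in the hypoxia response of sgXIST9. Every library correlated best with its own number between sgCtl normoxia and hypoxia and between sgCtl and sgXIST7 in normoxia. Depth limits comparisons in which a group had 3 counts or fewer in every library, as for WNT3A, WNT4, WNT7B, RSPO1 and SFRP4 in sgXIST9 normoxia.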
